A study of Arabidopsis thaliana with 4 samples.

Results

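The sites described here are the 219 chromatin intervals that were called with the FLAG-rga11 mutant and overlapped no interval called with the FLAG-RGA wild type by 1 bp or more. They make up 43.4% (95% exact Clopper-Pearson interval 39.0 to 47.8) of the 505 peaks of the mutant list, out of 6621 listed peaks of both lines. The other 286 mutant peaks overlapped a wild-type peak, and 5827 of 6116 wild-type peaks overlapped no mutant peak. Members were chosen by the authors' peak calls, that is by the fold and q behind both lists, so these values are given as descriptions. All intervals in the text cover counting error only.

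The 4 libraries, 1 per group, came from Arabidopsis thaliana seedlings kept for 10 days in continuous light on MS plates. Chromatin was immunoprecipitated with anti-FLAG beads and sequenced (ChIP-seq). The groups were the FLAG-tagged mutant RGA (Frga11) in sly1 dP, the control of that line labelled sly1 dP, the FLAG-tagged wild-type RGA (FRGA) in sly1 dP, and its control labelled RGA sly1 dQ. The labels name neither the promoter of the tagged proteins nor how many plants or lines a library stands for. A line had 1 library, so differences between lines were not checked in replicates and no p-value is given for them. The peak names of the mutant list carry an abbreviation for its control that matches no label, so which library served as that control is unsettled, and every mutant fold and q depends on it.

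RGA is one of the DELLA proteins, nuclear repressors of growth that are broken down after gibberellin binds its receptor, through the F-box protein SLY1. DELLA proteins have no DNA-binding domain of the usual kind and reach chromatin through transcription factors. The series title ties the PFYRE subdomain of DELLA to histone H2A binding and to association with target chromatin.

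The members fell into 189 sites on chromosome arms and 30 pericentromeric sites. A site counted as pericentromeric when its summit lay in the longest run, on its chromosome, of 500 kb windows with fewer than 50 coding genes. These runs covered 16.6 Mb and held 2.97% of the 27444 coding genes. Pericentromeric sites made up 13.7% (9.44 to 19.0) of the members, 3.50% (1.69 to 6.34) of the shared mutant peaks and 1.60% (1.29 to 1.95) of the wild-type-only peaks. Chromosome 4 held 22 of the 30, chromosome 5 held 5, chromosome 3 held 2, chromosome 2 held 1 and chromosome 1 held none. With arm and pericentromeric sites pooled, chromosome 4 had the highest share of its mutant peaks without a wild-type overlap, 58 of 97 (59.8%, 49.3 to 69.6). Chromosome 1 had the lowest, 43 of 131 (32.8%, 24.9 to 41.6). The 58 include 22 pericentromeric sites, 17 of them neighbours in 1 stretch described below. The interval takes these as independent, and the share is not read as a trait of the whole chromosome. On the arms the members were spread over all chromosomes, with 43 on chromosome 1, 38 on chromosome 2, 33 on chromosome 3, 36 on chromosome 4 and 39 on chromosome 5.

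Members on the arms varied widely in their distance from the wild-type map. Gaps for other positions on the arms were not worked out, so closeness is not judged here. The gap to the nearest wild-type interval had a median of 2725 bp and ran from 47 to 93233 bp. It was at most 500 bp at 35 arm members (18.5%, 13.3 to 24.8) and over 10 kb at 52 (27.5%, 21.3 to 34.5). The member nearest to a wild-type interval, with a gap of 47 bp, lay 608 bp inside AlaAT1, an alanine aminotransferase gene. It was followed by members inside AT1G66090 (111 bp) and AT4G29780 (134 bp). Just on the other side of the rule, the shared peaks with the smallest overlaps lay at AT5G64870 (77 bp), LHB1B1 (93 bp), a light-harvesting chlorophyll protein gene, and inside AT1G70620 with ABCB26 beside it (94 bp).

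The wild-type list holds fewer peaks than were numbered, and this bears on what mutant-only means. Its peak numbers follow genome order and reach 7873, of which 6116 are listed. The peak names carry a q of 0.05, whereas the lowest listed −log10 q is 3.0. A member between wild-type peaks with consecutive numbers therefore has no unlisted wild-type peak beside it. This held for 87 of the 189 arm members (46.0%, 38.8 to 53.4) and for 2 of the 30 pericentromeric members. At 96 arm members 1 or more wild-type numbers were missing between the neighbours, so an unlisted wild-type peak may lie at the same site, and 6, all at the tip of chromosome 2, lay beyond the outermost wild-type peak of their chromosome. The median fold was 2.74 with consecutive numbers (n = 87) and 2.67 with missing numbers (n = 96).

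**Figure D1:**
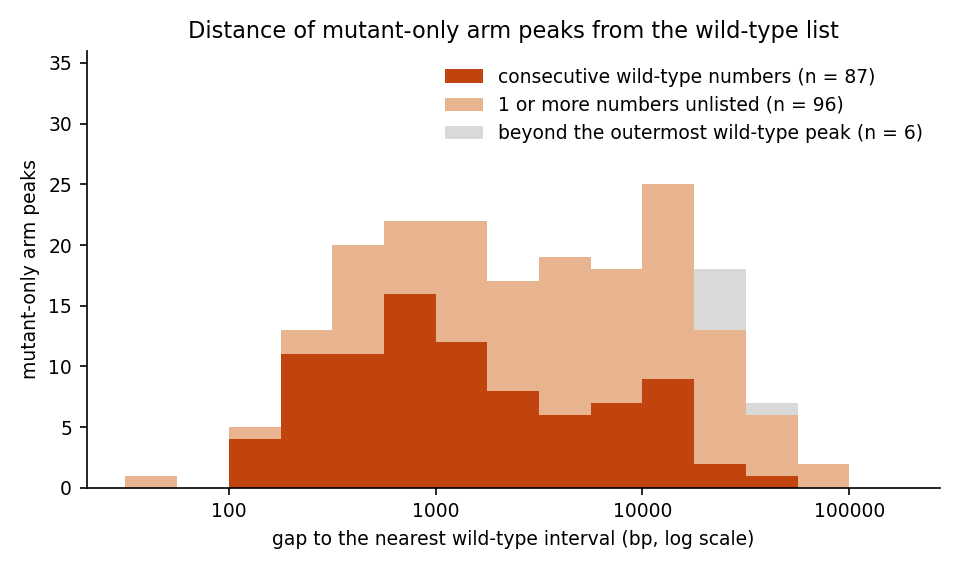
Gap in bp from each of the 189 mutant-only arm peaks to the nearest wild-type interval (log axis), stacked by whether the neighbouring wild-type peaks have consecutive numbers (87), have numbers missing between them (96), or the site lies beyond the outermost wild-type peak (6). Peaks of all 3 kinds are counted per bin, and the median gap is 2725 bp.

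The fold of a peak is the authors' own value, coverage of the ChIP library divided by that of the control. Across the arm members it had a median of 2.71 and ran from 1.55 to 4.89, and 60 of 189 exceeded 3. The shared mutant peaks on the arms had a median of 2.64 and a range of 1.47 to 4.96. The −log10 q of the arm members had a median of 5.03 and a highest value of 32.3, with 63 of 189 (33.3%, 26.7 to 40.5) under 4. Among shared arm peaks the median was 6.12, and 56 of 276 (20.3%, 15.7 to 25.5) were under 4. Members on the arms had a median of 90 ChIP fragments over the summit, against 113 at shared arm peaks. Intervals were of like width, with medians of 237 bp and 242 bp.

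The control level at a summit was recovered from the deposited fold and p, in multiples of the genome background of its call. It was over 5 times background at 36 of 189 arm members (19.0%, 13.7 to 25.4), at 81 of 276 shared arm peaks (29.3%, 24.0 to 35.1) and at 261 of 5734 wild-type-only arm peaks (4.55%, 4.03 to 5.12). At 17 arm members (8.99%) the control stood at background. High control was thus more frequent in both sets of mutant peaks than among wild-type-only peaks, and its part in the calls was not tested. The background was 7.21 fragments in the mutant call and 14.5 in the wild-type call. With unlike calls and controls, the limit of 5 times background is not the same measure in both lists. In the plot of fold against control level the lower edge of the cloud is the calling threshold, so low folds appear only where the control is high.

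**Figure D2:**
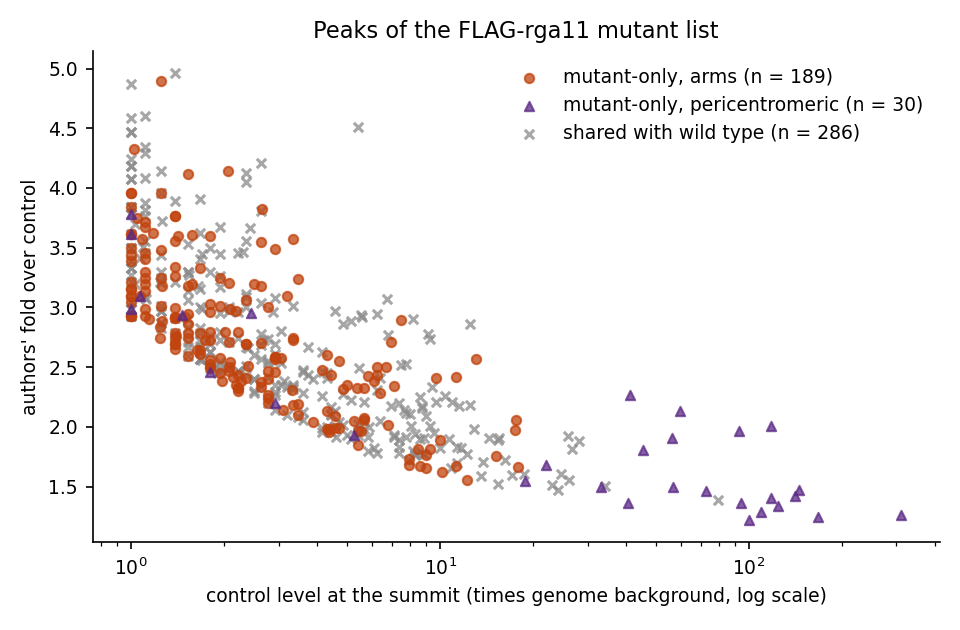
Authors' fold over control against the control level at the summit, in multiples of the genome background (log axis), for every peak of the mutant list. Circles are the 189 mutant-only arm peaks, triangles the 30 mutant-only pericentromeric peaks and crosses the 286 shared peaks. Of the triangles, 22 of the 30 lie above 5 times background. The triangle at 311 times is a site where the solution stopped at its upper limit of 5999 fragments, so its control level was not recovered.

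On the arms the members were mostly inside coding genes, and away from the gene ends more often than the other peaks. Inside a coding gene lay 161 of 189 summits (85.2%, 79.3 to 89.9), against 78.6% (73.3 to 83.3) of the shared arm peaks and 64.9% (63.7 to 66.2) of the wild-type-only arm peaks. More than 500 bp from either gene end lay 52.4% (45.0 to 59.7) of the members, 37.7% (31.9 to 43.7) of the shared peaks and 22.3% (21.2 to 23.4) of the wild-type-only peaks. Outside genes but within 1 kb lay 6.35% (3.32 to 10.8) of the members, 12.3% (8.68 to 16.8) of the shared peaks and 23.3% (22.2 to 24.4) of the wild-type-only peaks. The remaining 16 members, 8.47% (4.92 to 13.4), lay farther from any coding gene, and at 9 of them a pseudogene was annotated at the summit. These intervals do not overlap between members and wild-type-only peaks for summits deep inside or just outside genes. They overlap between members and shared peaks for summits just outside, and do not overlap for summits deep inside. Every peak is taken as independent in these intervals, although 50 of the 189 members lay in 21 clusters. The intervals may thus be too narrow, and no difference between the lines is read from them. Without the 7 sites at the tip of chromosome 2, 88.5% of the arm members lay inside a coding gene. No test was made, and the rule itself keeps members off the wild-type peaks, of which many lie near gene ends. The shares for points placed at random in genes were not worked out, so only the sets of peaks are compared here.

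**Figure D3:**
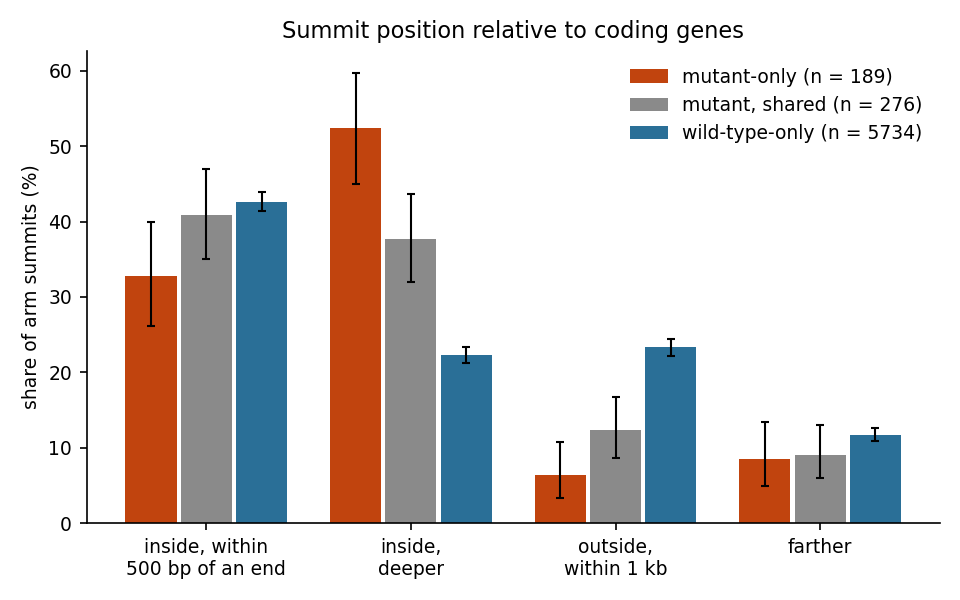
Share of arm summits in each position relative to coding genes, with 95% exact intervals as error bars, for mutant-only peaks (n = 189), shared mutant peaks (n = 276) and wild-type-only peaks (n = 5734). The share deeper inside genes is 52.4% for mutant-only and 22.3% for wild-type-only peaks.

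The summits inside genes lay deeper in members than in the other sets. Their distance from the nearer gene end had a median of 564 bp, with the middle 50% between 439 and 763 bp (n = 161). It was 490 bp (357 to 707) for shared arm peaks (n = 217) and 385 bp (233 to 610) for wild-type-only arm peaks (n = 3724). Less than 250 bp inside a gene lay 9 members (4.76%, 2.2 to 8.85), against 9.06% (5.95 to 13.1) of shared peaks and 17.9% (16.9 to 18.9) of wild-type-only peaks. Here the intervals of members and shared peaks overlap. The 143 host genes had a median length of 2179 bp, close to the 2078 bp of all coding genes. Lengths of the genes that hold shared or wild-type-only summits are not given here, so the part of gene length in these depths was not tested. The gene table gives no strand, so a gene's start and end were not told apart.

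**Figure D4:**
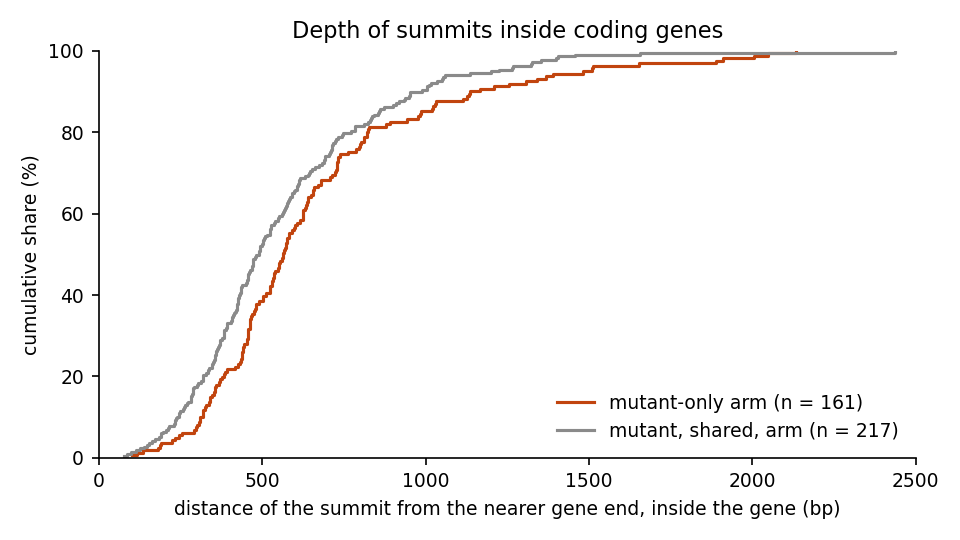
Cumulative share of summits inside coding genes against their distance in bp from the nearer gene end, for mutant-only arm peaks (n = 161) and shared mutant arm peaks (n = 217). The mutant-only curve runs to the right, with medians of 564 bp and 490 bp.

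The strongest members on the arms lay at genes of varied kinds. The highest fold, 4.89, was at a summit 182 bp inside AT1G15010 on chromosome 1, from 5171259 to 5171572. It had 102 ChIP fragments against a control of 1.25 times background, and AT1G15015 and QSOX1, a quiescin-sulfhydryl oxidase gene, lay within 1 kb. The nearest wild-type interval was 23142 bp away, so this site stood apart from the wild-type map, although 3 wild-type numbers are missing there. The next, at 13663082 to 13663314 on chromosome 4 with a fold of 4.33, had its summit 117 bp inside AT4G27270, with AT4G27280 within 1 kb. There a wild-type interval with a fold of 1.32 began 457 bp away, and no wild-type number was missing.

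TCH4 (AT5G57560), which encodes the touch-inducible wall enzyme xyloglucan endotransglucosylase/hydrolase 22, had 2 members inside the gene on chromosome 5. That from 23307971 to 23308207 had a fold of 4.12 and a control of 1.53 times background, and that from 23307344 to 23307765 a fold of 2.43 and a control of 6.24 times background. The nearest wild-type interval was 14333 bp away. MYB4 (AT4G38620), a repressor of phenylpropanoid genes, had a summit 680 bp inside with a fold of 3.96 and a control at background. Its wild-type interval, with a fold of 3.69, lay 1397 bp away, so both lines were called at this gene at separate places.

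The other sites among the 12 highest folds were spread likewise. AT2G47560 had a summit 775 bp outside the gene with a fold of 3.96. AT1G50740 and the overlapping AT1G50745 followed with 3.95, AT5G21090 with 3.84 and the cytochrome P450 gene CYP706A2 (AT4G22710) with 3.82. AT2G26190 had 3.77, as had SYP122 (AT3G52400), a plasma membrane syntaxin gene, whose site also lay within 1 kb of AT3G52390. AT2G37110, with AT2G37120 beside it, closed the 12 with 3.75. The third highest, at 4.14, had no coding gene within 1 kb and belongs to the tip of chromosome 2.

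Several genes carried more than 1 member. Of 217 coding genes with an arm member inside or within 1 kb, 23 had 2 or more and 4 had 3 or more. CPK32 (AT3G57530), a calcium-dependent protein kinase gene, had 4 inside it, with folds of 2.49, 2.35, 2.46 and 3.0 from 21297150 to 21299381 on chromosome 3. All 4 lay between wild-type peaks with consecutive numbers, and the nearest wild-type interval was 686 bp from the first of them. DIN10 (AT5G20250), a dark-inducible gene of the raffinose synthase family, had 2 members inside it, with folds of 3.67 and 2.96. A further one, with 3.71, lay 101 bp inside the neighbouring AT5G20260. The nearest wild-type interval was 12833 bp from these sites, and 2 wild-type numbers are missing there. AT1G50740 and AT1G50745 shared 3 members over 1.94 kb with folds from 2.46 to 3.95.

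The 19 other genes had 2 members each, TCH4 among them. BT5 had folds of 3.19 and 3.55, and CYP707A3, which encodes an enzyme that inactivates abscisic acid, had 3.57 and 2.39. AILP1, named for aluminium-induced proteins, and AT5G19150 shared 2 with 3.61 and 3.57. The Nudix hydrolase gene NUDT7 had 2.74 and 2.57, XLG2, an extra-large G protein gene, had 3.09 and 2.70, and BXL1, a beta-xylosidase gene, had 2.04 and 2.79. AT2G20670 had 3.48 and 2.69, VPS2.1, a gene of the ESCRT-III membrane complex, had 2.3 and 3.18, AT3G17800 had 1.98 and 2.50, and the heat shock factor gene HSFB2A had 2.76 and 2.2. At MYB73 and the neighbouring HMA1 (2.34 and 2.24), at MYBR1 and CYP81G1 (1.66 and 1.99), at ERD15 (1.76 and 1.96) and at AT5G01710 (1.68 and 1.99) folds were lower. At each of these last 4 pairs, and at AT3G17800 and TCH4, 1 of the 2 summits had a control over 5 times background. AT5G20260, beside DIN10, is the last of the 19.

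With gaps of at most 10 kb, 50 arm members formed 21 clusters, and in 18 of them all members shared a coding gene. Clusters on the arms were thus mostly several summits in or beside 1 gene.

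Gene groups were read against a background of 221 coding genes with a member inside or within 1 kb, 0.805% of the 27444. Genes of rapid touch, wound and calcium responses had 8 of 43 at a member. They were TCH4, the calmodulin-like gene CML38, CPK32, the U-box ubiquitin ligase gene PUB22, the mitogen-activated protein kinase gene MPK3, the BTB and TAZ domain gene BT5, NUDT21 and the AP2/B3 factor gene RAV1. Of the same 43 genes, 15 were at a shared mutant peak, against 1.09% of coding genes, and 28 were wild-type targets, against 23.2%. The list was composed with earlier results of these data known, so its count is not independent evidence. The folds ran from 2.28 at RAV1 to 4.12 at TCH4, and 6 of the 8 genes were still counted when members with a control over 5 times background were left out.

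Stress transcription factor lists held single genes. WRKY40 (fold 3.1), 1 of 16 WRKY stress genes, had its summit 352 bp inside and a wild-type interval 1078 bp away. STZ, a zinc-finger gene also called ZAT10 and 1 of 8 in its list, had a fold of 1.98 with a control of 17.5 times background. ERF105 (AT5G51190), 1 of 16 ERF and CBF genes, was within 1 kb of a summit inside AT5G51180 (2.50, control 6.66 times background). HSFB2A was the 1 gene of 14 among heat shock genes.

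Hormone lists held few members. CYP707A3 was the 1 gene of 22 for abscisic acid. ACS6, which encodes the ethylene precursor enzyme ACC synthase, was 1 of 15 for ethylene, with a fold of 2.71. No gene was at a member among 24 gibberellin, 24 auxin, 21 jasmonate and 17 PIF and HLH growth factor genes. Of these, 17 gibberellin, 14 auxin, 12 jasmonate and 11 PIF and HLH genes were wild-type targets. With 0.805% of all coding genes at a member, a list of this length with none is near that background and is not a result about its genes. Outside these lists, single auxin-related genes were at or near members. The auxin response factor gene ARF2 (AT5G62000) lay within 1 kb of a summit inside HSFB2A (2.76). AT1G72430 (3.24) was 1 of 80 SAUR genes, or 1.25%, and none of 32 IAA genes was at a member. These counts are near the background of 0.805% too and are not results about auxin genes. The clock and light (18 genes), histone (18), photosystem (19) and seed (10) lists had none either.

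Cell wall genes had 3 of 20. XTH4, a further xyloglucan endotransglucosylase/hydrolase gene, had a fold of 2.58 and lay 93233 bp from the nearest wild-type interval, the largest gap of any arm member. AGP16, an arabinogalactan protein gene, was near a summit inside AT2G46320 (3.01). TCH4 is also in this list. UBQ10, a polyubiquitin gene of high and steady expression, was the 1 of 13 abundant-transcript genes, at a pericentromeric site with a fold of 1.54 and a control of 18.9 times background.

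By gene symbol, families chosen after their values had been seen gave further counts. Early responsive to dehydration (ERD) genes had 4 of 17, namely ERD4 (2.19), ERD7 (2.09), ERD15 and the proline dehydrogenase gene ERD5 (2.45), the last of these pericentromeric. Nudix hydrolases had 3 of 24, with NUDT4 (2.60), NUDT21 (2.90) and NUDT7. BT2 (2.06) and BT5 were 2 of 5 BT genes, and BXL1 and BXL2 (2.93) 2 of 3 BXL genes. The phosphate-induced and exordium-like genes EXO (2.71), PHI-1 (2.51) and EXL2 (2.41) each had 1. The other genes of this kind were not counted, so no share is given for them. Among other families taken by symbol, the MYB family had 3 of 125, MYB4, MYB73 and MYBR1, and the NAC family 2 of 100, NAC062 (2.92) and TIP (3.33). The CPK family had 2 of 34, CPK32 and CPK1 (3.30). BBX, bHLH, JAZ, SPL, IAA, TPS, ATL, HSP, LHC, RLP and VQ names, from 6 VQ to 55 RLP genes, had none. With 0.805% of all coding genes at a member, this is near that background and is not a result about these families.

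Many genes at members were marked in the wild type at another place. Of the 217 genes at arm members, 89 (41.0%, 34.4 to 47.9) were also wild-type targets by the same 1 kb limit, where 23.2% of all coding genes were. A wild-type summit lay inside 41 of the 143 host genes (28.7%, 21.4 to 36.8), against 12.9% of all coding genes. At the 47 members in these 41 genes the nearest wild-type summit of the same gene was a median of 813 bp away, with a range of 245 to 3278 bp. The other 128 genes (59.0%, 52.1 to 65.6) were at neither a wild-type summit nor a shared mutant peak. TCH4, CML38, PUB22, RAV1, STZ, XTH4, DIN10, ERD15 and QSOX1 are among them. Of all 17 list genes at members, 10 were wild-type targets too. The lists as a whole were rich in wild-type targets, from 6 of 18 histone genes to 16 of 19 photosystem genes. The 10 of 17 is therefore not read as an excess at members.

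The pericentromeric members lay mostly away from coding genes, at lower fold and higher control than those on the arms. Only 3 of 30 had their summit inside a coding gene, and 26 lay farther than 1 kb from one. Their fold had a median of 1.74, against 2.71 on the arms, and their control level a median of 50.9 times background, against 2.09. At 22 of the 30 the control was over 5 times background, with folds of 1.22 to 2.27. At 1 of these 22, on chromosome 2, the solution stopped at its upper limit of 5999 fragments. Its fragments and control level were therefore not recovered. Without that site the control ran from 5.27 to 167 times background, with 158 to 3627 ChIP fragments over the summit. Interval width was alike, with medians of 241 bp and 237 bp. The 10 shared mutant peaks in the same runs had a median fold of 1.94, control over 5 times background at 7, and 9 farther than 1 kb from a coding gene. Their median control, 6.30 times background, was far below the 50.9 of the 30 members, 17 of which came from the chromosome 4 stretch. Median ChIP fragments over the summit were 251.5 at these shared peaks and 1372.5 at the members. Repeated DNA was not mapped here, and its part in these counts was not tested. The other 8 members had folds of 2.2 to 3.79. The highest of them (3.79, control at background) lay at 11796694 to 11796889 on chromosome 3, at the pseudogene AT3G30170 and 907 bp from AT3G30165. It was followed by a site at 5293463 to 5293718 on chromosome 4 (3.61), 1302 bp from GTA2, and one at 5055178 to 5055384 on chromosome 4 (3.09).

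Of the 22 chromosome 4 sites, 17 lay between 3966450 and 4011278, a stretch of 44.8 kb with no coding gene and 4 pseudogenes. Their folds ran from 1.22 to 2.27 with a median of 1.47, and their control levels from 33.1 to 145 times background with a median of 92.6. The −log10 q reached 140 at the first of them, from 3966450 to 3966635, where 3627 ChIP fragments stood over a control of 118 times background. That site had a fold of 2.0. Another site of the stretch with 3271 fragments had a fold of 1.47 and a −log10 q of 41.1. At a gap of 10 kb the stretch split into groups of 10 and 7. It held 1 shared mutant peak and 1 wild-type peak.

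A second gene-poor stretch lay at the tip of the short arm of chromosome 2, next to where a nucleolar organizer, an array of ribosomal RNA genes, is known to lie. Between 17339 and 62316, 7 members had folds of 3.18, 2.50, 4.14, 2.98, 2.41, 1.96 and 2.18 in order along the chromosome. All were 6092 to 18832 bp from a coding gene, and 5 had a pseudogene at the summit. The control level was 2.05 to 5.41 times background, far below that of the chromosome 4 stretch. No shared mutant peak and 2 wild-type peaks lay in the span, and the nearest wild-type interval was 6769 to 34573 bp away. These 7 sites are counted among the 189 on the arms and are 7 of the 16 that lay farther than 1 kb from a coding gene.

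**Figure D5:**
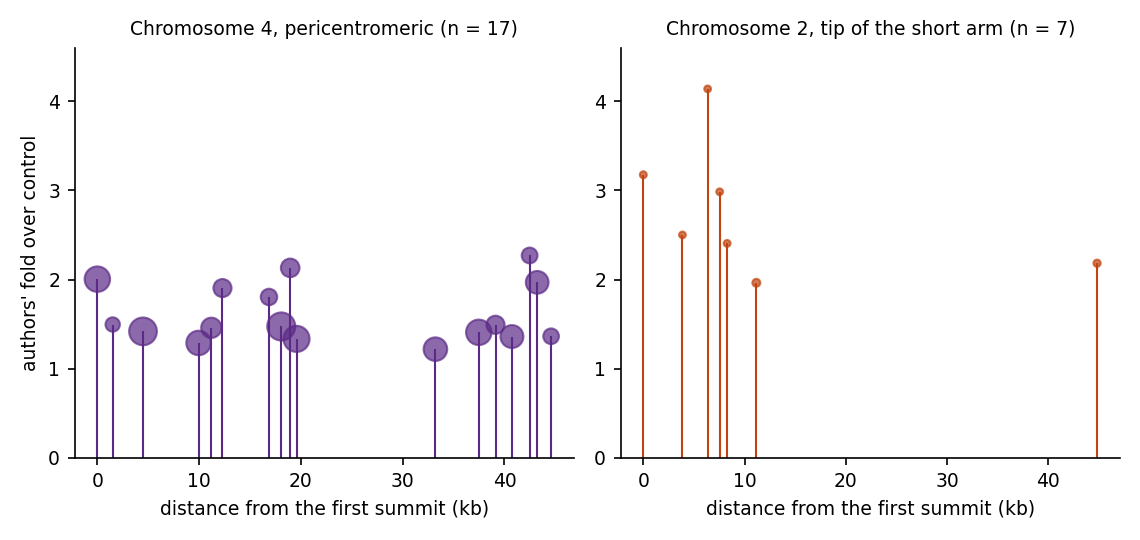
Authors' fold over control against the distance in kb from the first summit, for the 17 members of the chromosome 4 stretch and the 7 members at the tip of chromosome 2. Each line is 1 peak and the area of the circle grows with its control level, which is 33.1 to 145 times background on chromosome 4 and 2.05 to 5.41 times on chromosome 2.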

How the data were processed

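ChIP-seq peak lists of FLAG-rga11 and FLAG-RGA seedlings, 1 per line, were analysed; the controls entered through the authors' calls, and read totals were not analysed here. Per the labels' protocols, tissue was fixed in 1% formaldehyde for 20 minutes and incubated for 2 hours. MACS2 2.2.7.1, Trimmomatic 0.39, deepTools 3.1.3, Bowtie2 2.4.5 and the TAIR10 build are named in the submitters' processing notes, and their settings are not given in the sources used here. The deposited fold is the caller's ratio of ChIP coverage over control with a pseudocount of 1. The −log10 p and −log10 q were deposited by the authors too, and the deposited score was not used.

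Members were found with a minimum overlap of 1 bp. Fragments over the summit and control level were solved from fold and p, with at most 5999 fragments. A pericentromeric member on chromosome 2 reached that limit without meeting its deposited p. For the mutant the background was 7.21 fragments with ChIP scaled by 0.470, and for the wild type it was 14.5 fragments. The deposited −log10 p was met to within 0.001 at 99.8% of peaks in the mutant list and 99.98% in the wild-type list. Tested on 400 simulated peaks per call, the control level was recovered within 2% in 100% of both calls. The simulated peaks followed the same model and were kept below the upper limit of fragments. In the mutant call their control levels reached 253 times background. Recovery at the limit was therefore not tested. Control level has a floor at the background.

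Genes are RefSeq genes on TAIR10.1, used for names and neighbours. The table has no strand and no sequence, so promoters, gene parts, motifs and sequences of the sites are not analysed here. A gene was counted with a summit inside it or within 1 kb. Genes came in 17 lists of 317 matched genes, and 13 of 333 symbols did not match 1 gene. Members, lists and families were chosen with earlier results of these data known. Named were the 12 highest folds on the arms, genes with 2 or more summits, list genes, the 3 sites on each side of the overlap rule, and the 3 highest folds and densest stretch near centromeres; further genes were named after their values were seen. No set test or chance test was made. Python 3.11.15, scipy 1.17.1 and pandas 2.3.3 were used.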

Additional observations from a re-analysis of the deposited data

How the results depend on the processing

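The share of arm summits inside a coding gene ran from 82.0 to 88.5% under the alternatives that kept pericentromeric sites apart, inside its own interval, and was 74.9% over all members. A −log10 q of 5 or more left 119 members, 111 genes and 11 clusters. A −log10 q of 10 or more left 46 members, of them 17 pericentromeric, with 36 genes, 5 clusters, 31 sites of high control and 9 list genes. With wild-type intervals widened by 1000 bp, 14 clusters and 10 list genes were left, against 23 and 17. The next 2 limits were chosen after seeing the data. Members between consecutive wild-type numbers numbered 89, of them 2 pericentromeric, with 109 genes, 7 clusters, 18 sites of high control and 11 list genes. With control at most 5 times background 8 pericentromeric sites and 15 clusters were left. High control taken as over 2 times background held for 125 members, against 58. The remaining 49 comparisons of these results moved by less than 1.5 times or stayed inside the interval. No paired analysis was possible because each line has 1 library. Read totals were not analysed. The mutant call was made with ChIP scaled by 0.470 and a background of 7.21 fragments, against a background of 14.5 in the wild-type call. What this difference in level limits was not tested. A site absent from the wild-type list was not shown to be free of RGA.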

Other observations

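The mutant summit list holds 1 summit without fold, p or q and without a matching peak, at 3955191 on chromosome 4. It lies 11259 bp before the first peak of the dense pericentromeric stretch on that chromosome.

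Genes of plant immunity occurred at single members outside the lists. NPR3, a salicylic acid receptor gene, had a fold of 3.16 with the control at background. ADR1-L2 (2.94) and SNC1 (2.42), which encode intracellular immune receptors, and MEKK1 (2.65), a kinase upstream of mitogen-activated protein kinases, each had 1 summit inside the gene. ADR1-L2 and SNC1 were also wild-type targets, with a wild-type interval 549 bp and 2948 bp away, whereas NPR3 and MEKK1 were not. These genes were picked after their values had been seen.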
